A study of Mus musculus with 4 samples.

Results

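A set of 10 fibroblast genes, measured by 18 of the 45101 probe sets of a mouse expression array, is described here across 4 embryonic stem cell lines. They are the collagen genes Col1a1, Col1a2, Col3a1, Col5a1, Col5a2 and Col6a1, the small proteoglycan genes Dcn and Lum, the matrix gene Postn and the surface antigen gene Thy1. Their probe sets are all those that the platform annotation assigned to one gene only, that gene being one of these 10, and 6 of the genes had more than 1 probe set. The lines fall into a UTX knockout group, KO line 1 and KO line 2, and a UTX conditional knockout group, cKO line 1 and cKO line 2, with 1 Affymetrix Mouse Genome 430 2.0 array for each line. UTX, the product of the X-linked gene Kdm6a, is a demethylase of lysine 27 of histone H3. Embryonic stem cells of all 4 lines were kept in serum and LIF on irradiated embryonic fibroblasts, were carried through 2 passages on gelatin to take these feeders away, and were harvested from gelatin. The labels call the cKO lines independent, and do not say how the knockout lines were made, whether each is a clone, whether the conditional allele had met a recombinase, or which sex the lines and feeders were. They do not say either whether the RNA came from separate cultures, so the p-values given here reflect only how far these 4 samples differ, which may be technical.

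Fibroblasts build the fibrous matrix of connective tissue. Type I collagen is a triple helix of the chains of Col1a1 and Col1a2, type III is made of Col3a1 chains, and type V, with chains from Col5a1 and Col5a2, is a minor component that starts fibrils and limits their width. Col6a1 gives a chain of the beaded filaments of type VI collagen. Decorin (Dcn) and lumican (Lum) are leucine-rich proteoglycans that bind collagen fibrils, periostin (Postn) is a matrix protein that binds collagen and integrins, and Thy1 is a GPI-anchored glycoprotein found on fibroblasts, neurons and T cells. Embryonic stem cells are often grown on a layer of growth-arrested fibroblasts, so transcripts of these genes are used to look for such cells.

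The arrays had similar control ratios and correlated closely, while their median signals went with the line number. The median over all probe sets was 81.6 in KO line 1 and 76.6 in cKO line 1, against 64.9 in KO line 2 and 64.4 in cKO line 2. The 3' to 5' control ratio of Gapdh lay between 0.795 and 0.838. Pearson's r between arrays lay between 0.962 and 0.983 over the 10916 genes tested, a description across genes. Deviations of KO line 1 and cKO line 1 from their group means correlated at r = 0.52 across genes. The part of this in the results on cKO line 1 was not tested. Kdm6a, the targeted gene, read 265 and 198 in KO lines 1 and 2, against 658 and 415 in cKO lines 1 and 2, with its brightest probe set (log2 fold change -1.17, SE 0.27, adjusted p = 0.0884 in limma). The position of that probe set against the deleted part of the gene was not used here, so the values do not test the labels fully. All 10 embryonic stem cell markers listed for the check were above the filter described next, and their summed signal was 99190 and 92925 in KO lines 1 and 2 and 90078 and 91856 in cKO lines 1 and 2. A signal is the linear MAS5 intensity of a probe set, and the probe set with the highest mean log2 signal stands for its gene. Genes in the lower 40% by that mean, below a signal of 77.7, were left out of the test. Such signals were taken as near background, which was not checked with detection calls.

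Both type I collagen chains read lower in the KO lines than in either cKO line, and cKO line 1 read far above cKO line 2. Col1a1 read 146 and 171 in KO lines 1 and 2, against 618 in cKO line 1 and 246 in cKO line 2. The groups did not overlap, and the distance between the cKO lines exceeded that between cKO line 2 and the KO lines. The mean was 158 ± 17.5 in KO and 432 ± 263 in cKO (SD, n = 2 each). The log2 difference of KO minus cKO, called the log2 fold change below, was -1.28 with an SE of 0.40 and did not pass the threshold of an adjusted p under 0.05 (adjusted p = 0.212 in limma). A second Col1a1 probe set read 135 and 107 in KO lines 1 and 2, against 719 and 312 in cKO lines 1 and 2. Its log2 fold change was larger, at -1.93 (SE 0.38, adjusted p = 0.0639 over all probe sets in limma), so the size for this gene depended on the probe set.

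Col1a2 read 461 and 548 in KO lines 1 and 2, against 1068 in cKO line 1 and 644 in cKO line 2. Its KO mean was 59.0% of its cKO mean, with 505 ± 61.5 in KO and 856 ± 299 in cKO (SD, n = 2 each; log2 fold change -0.72, SE 0.25, adjusted p = 0.264 in limma). A second probe set gave 124 and 228 in KO lines 1 and 2, against 416 and 280 in cKO lines 1 and 2. KO line 2 stood close to cKO line 2 with both of these probe sets. The remaining Col1a2 probe set stayed at or under 26.0 on every array.

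Among the 6 collagen genes Col5a1 was the one that passed the test, and Col3a1 did not pass although its groups did not overlap. Col3a1 read 67.8 and 67.0 in KO lines 1 and 2, against 299 in cKO line 1 and 145 in cKO line 2. Both KO lines were below both cKO lines, and below the filter level of 77.7, so the size of the difference is uncertain. The log2 fold change was -1.56 (SE 0.38, adjusted p = 0.104 in limma), on means of 67.4 ± 0.596 in KO and 222 ± 109 in cKO (SD, n = 2 each). Its second probe set, dim on every array, read 24.8 and 14.4 in KO lines 1 and 2 and 43.6 and 25.3 in cKO lines 1 and 2.

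Col5a1, which encodes the chain that most type V collagen contains, fell in KO cells. It read 148 and 137 in KO lines 1 and 2, against 453 and 338 in cKO lines 1 and 2. The KO lines were close to each other and the cKO lines stood at well over their level. The mean was 142 ± 8.04 in KO and 396 ± 81.6 in cKO (SD, n = 2 each). That made -1.43 on the log2 scale (SE 0.23, adjusted p = 0.0295 in limma). Of its other 2 probe sets, the brighter read 180 and 139 in KO lines 1 and 2, against 446 and 257 in cKO lines 1 and 2. The dim one, under the filter, read 10.5 and 29.0 in KO lines 1 and 2, against 102 and 72.7 in cKO lines 1 and 2. Without cKO line 1 the log2 fold change of Col5a1 was -1.22 and the call ended (adjusted p = 0.0938 in limma). The call also ended with no filter on low genes, with probe sets averaged per gene and without a trend of variance on signal (adjusted p from 0.0563 to 0.0739).

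Col5a2, the partner chain, differed less. It read 252 and 343 in KO lines 1 and 2, against 536 and 405 in cKO lines 1 and 2, and KO line 2 came near cKO line 2. The log2 fold change was -0.65 (SE 0.23, adjusted p = 0.263 in limma). Col5a2 and Col3a1 are neighbours on chromosome 1 with no annotated gene starting between them in the RefSeq table of GRCm38.p6, and their log2 fold changes of -0.65 and -1.56 were unequal in size.

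Promoter sequences are shown for the 3 fibrillar collagen genes that the RefSeq promoter table of GRCm38.p6 holds, since these genes read lower in both KO lines and cover the range of change among them. Of the 10 genes, 5 had an entry. Each stretch ends just before the first annotated base of its gene and runs 5′ to 3′ on the gene's strand, and capitals mark matches of 3 motifs on either strand, which do not overlap here. The first is CCAAT, the core of the box bound by NF-Y. The second is GGGCGG, the core of the GC box bound by Sp1. The third is TATAAA, a form of the TATA box. The stretches are Col1a2 at chr6:4505368-4505617 (+), Col3a1 at chr1:45311288-45311537 (+) and Col5a1 at chr2:27886175-27886380 (+).
Col1a2: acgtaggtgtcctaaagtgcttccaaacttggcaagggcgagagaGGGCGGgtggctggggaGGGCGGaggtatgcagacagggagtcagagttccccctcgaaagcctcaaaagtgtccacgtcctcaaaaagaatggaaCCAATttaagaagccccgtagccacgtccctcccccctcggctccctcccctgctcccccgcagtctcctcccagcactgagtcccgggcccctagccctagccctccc
Col3a1: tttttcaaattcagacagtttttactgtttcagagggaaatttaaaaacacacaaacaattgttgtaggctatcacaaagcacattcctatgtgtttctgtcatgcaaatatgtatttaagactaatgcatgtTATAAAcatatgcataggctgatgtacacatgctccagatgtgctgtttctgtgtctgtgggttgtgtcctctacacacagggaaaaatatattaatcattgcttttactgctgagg
Col5a1: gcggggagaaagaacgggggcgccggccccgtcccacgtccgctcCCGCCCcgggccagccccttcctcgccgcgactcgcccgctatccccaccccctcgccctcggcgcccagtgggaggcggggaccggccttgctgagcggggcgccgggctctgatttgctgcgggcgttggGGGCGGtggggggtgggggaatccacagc
The promoters differ widely in base composition. G and C made up 62.0% of the Col1a2 stretch, 35.2% of that of Col3a1 and 77.7% of that of Col5a1, against a median of 52.0% over 27025 promoters of 250 bases. Col1a2 held 1 NF-Y core and 2 GC box cores. Col3a1 held 1 TATAAA match and neither other motif, and Col5a1 held 2 GC box cores alone in its 206 bases. Matches were counted anywhere in a stretch, and whether any of them works as a promoter element was not tested. Over all promoters, 34.5% held the NF-Y core, 32.9% the GC box core and 13.0% TATAAA within 250 bases. Within 206 bases, 25.7% held the GC box core. None of the 3 motifs was found in all 3 stretches.

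The collagen-binding proteoglycan Dcn followed the collagens, while Col6a1, Lum and Postn were dim in all lines. Dcn read 67.1 and 61.9 in KO lines 1 and 2, against 186 and 133 in cKO lines 1 and 2, so that the groups were apart and the KO values lay below the filter level. Its log2 fold change was -1.23 (SE 0.31, adjusted p = 0.122 in limma), and the size is uncertain since the KO signal is in the range taken as near background. A second Dcn probe set stayed under 10 on 3 arrays and read 35.3 in cKO line 1. Lum, the neighbour of Dcn on chromosome 10, read 29.5 and 28.4 in KO lines 1 and 2 and 44.4 and 23.0 in cKO lines 1 and 2. Its signal was under the filter, so no test was made, and cKO line 2 was its lowest line.

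Col6a1, also below the filter, read 63.9 and 62.5 in KO lines 1 and 2 and 80.0 and 72.9 in cKO lines 1 and 2, a log2 difference of -0.25. Among single probe sets, where the filter is lower, it was tested and did not pass (adjusted p = 0.865 in limma). Postn read 84.9 and 66.5 in KO lines 1 and 2 and 99.1 and 71.9 in cKO lines 1 and 2. Its groups overlapped, and the log2 fold change was -0.16 (SE 0.35, adjusted p = 0.909 in limma). Its sign turned when KO line 2 (0.0067) or cKO line 1 (0.060) was left out.

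Thy1 fell in KO cells and was the exception among the 10 in its order of lines. It read 202 and 157 in KO lines 1 and 2, against 372 in cKO line 1 and 466 in cKO line 2, so that cKO line 2 was the higher of the cKO lines. The mean was 180 ± 31.7 in KO and 419 ± 66.8 in cKO (SD, n = 2 each). That made -1.20 on the log2 scale (SE 0.23, adjusted p = 0.0483 in limma). Leaving out cKO line 2 ended the call (-1.04, adjusted p = 0.163), as did leaving out KO line 2 (-1.03, adjusted p = 0.0574). Thy1 was still called with cKO line 1 left out, at -1.36 (adjusted p = 0.039 in limma). The call ended too with no filter, with probe sets averaged per gene and without the variance trend (adjusted p from 0.0566 to 0.112 in limma).

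**Figure D1:**
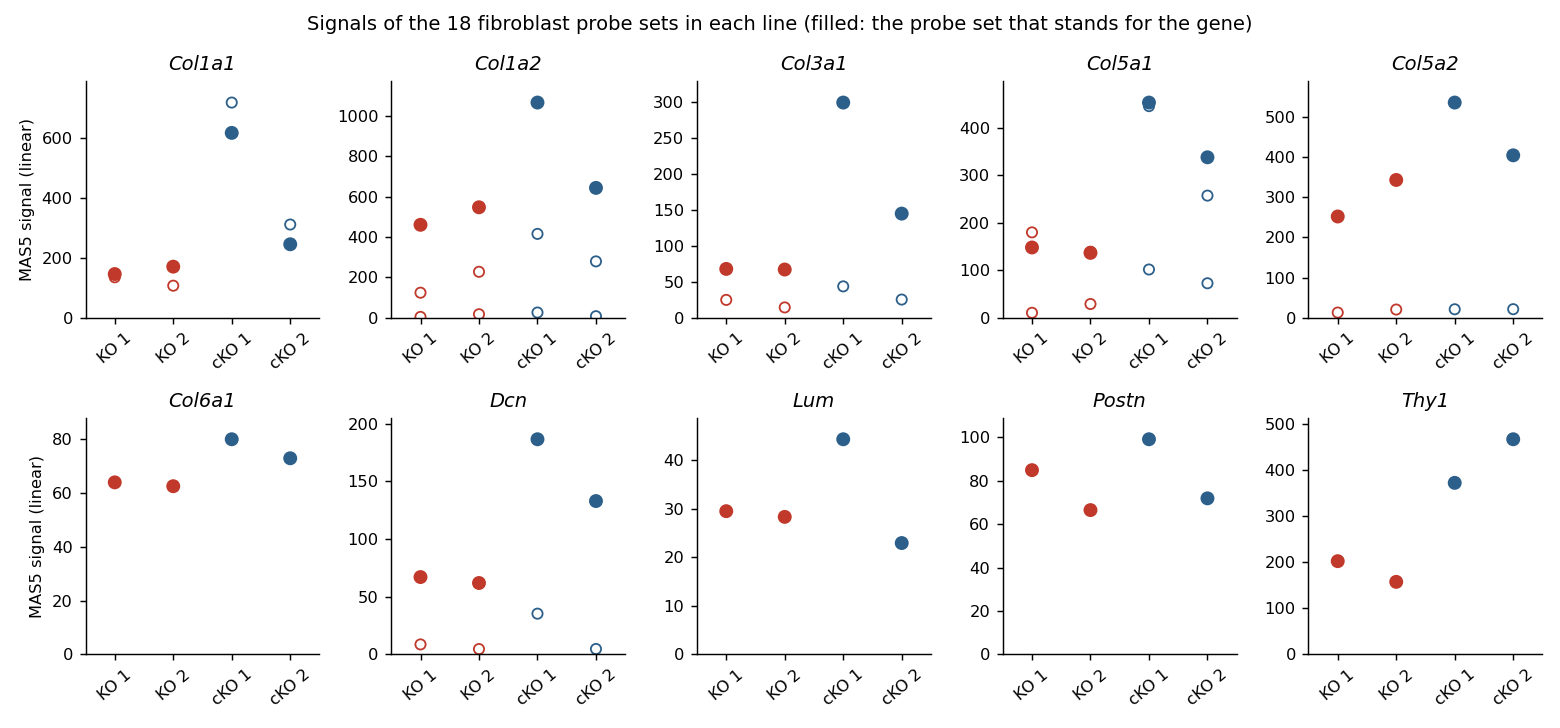
Linear MAS5 signal (y axis, from 0, own scale for each gene) of all 18 probe sets of the 10 genes in KO lines 1 and 2 (red) and cKO lines 1 and 2 (blue), 1 array each, so no error bars. Filled points are the probe set that stands for the gene. cKO line 1 is the highest line for 9 of the 10 genes, and Thy1 is highest in cKO line 2.

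Counted together, 2 of the 8 genes that passed the filter were called, Col5a1 and Thy1, both lower in KO, and 6 did not pass. Over all 10916 genes tested, 2.2% were called, 1.57% lower and 0.632% higher in KO. Col3a1, Dcn and Postn had KO means below the filter level (67.4, 64.5 and 75.7). Col3a1 and Dcn passed the filter only through the cKO lines. Postn was above that level in KO line 1 (84.9) and cKO line 1 (99.1), and below it in KO line 2 and cKO line 2. All 10 genes had a negative log2 difference, with a median of -0.96, against 0.0081 over all genes tested. Both KO values lay below both cKO values for 8 of the 10 genes and for 7 of the 8 tested, against 21.2% of all genes tested. The highest value was in cKO line 1 for 9 of the 10 and for 7 of the 8 tested, against 21.8% of all genes tested. Of the 18 probe sets, 14 had both KO values below both cKO values, against 16.8% of all probe sets naming one gene. Tested as probe sets, only 1 of 12 was called, a Col5a1 probe set, against 0.925% of all probe sets called lower. Centring each array on its median log2 signal called 5 of the genes, with Col1a1, Col3a1 and Dcn in addition, while its calls over all genes came to 328, of which 266 were lower, against 240 and 171 without centring. With 2 lines a group, an exact permutation test of one gene could not go below a two-sided p of 0.333.

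The design names 2 lines in each group, so the lines were also set against each other one by one, as single arrays with no replicate check and no test. Against cKO line 1, KO lines were lower for every one of the 10 genes. The median log2 difference was -1.14 for KO line 1 and -1.09 for KO line 2, while over all genes tested it was 0.022 and -0.0033. Col3a1 differed by -2.06 and -2.08, with KO signals below the filter level, and Col1a1 by -2.04 and -1.83. At least 2-fold lower were 6 genes in KO line 1, where 3.06% of all genes tested were, and 5 genes in KO line 2, where 4.76% were.

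Against cKO line 2 the log2 differences were less negative, or above 0, for 9 of the 10 genes, Thy1 being the exception. The median log2 difference was -0.70 for KO line 1 and -0.37 for KO line 2. Col3a1, Col5a1 and Thy1 were at least 2-fold lower in KO line 1, where 2.51% of all genes tested were, and Dcn joined them in KO line 2, where 2.85% were. Col1a1 differed by -0.73 and -0.51 and Col1a2 by -0.48 and -0.23, so type I collagen was farther from cKO line 1. Lum was higher in both KO lines than in cKO line 2, by 0.31 and 0.26, but with quantile normalization or centring all 10 genes were lower in KO line 1 than in cKO line 2. In the fit of KO against cKO, leaving out cKO line 1 took the median of the 10 genes to -0.54 and left 1 call, Thy1, while leaving out cKO line 2 gave -1.06 and 4 calls (Col1a1, Col1a2, Col3a1 and Col5a1).

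On the deposited scaling, the cKO lines lay farther from each other than the KO lines did for 8 of the 10 genes. The exceptions were Col5a2 and Thy1, and the share over all genes was not counted. In cKO line 1, 9 of 10 genes were higher than in cKO line 2 (8 of 10 with quantile normalization or centring), with a median log2 difference of 0.46, against 0.0042 over all genes tested. Col1a1 (1.31) and Col3a1 (1.02) were at least 2-fold higher in cKO line 1, where 1.34% of all genes tested were. Lum (0.82), Col1a2 (0.72), Dcn (0.47), Postn (0.44), Col5a1 (0.42) and Col5a2 (0.40) followed, Col6a1 was at 0.13, and Thy1 was lower in cKO line 1 by -0.32. KO line 1 and KO line 2 lay within 2-fold of each other for all 10, from -0.44 for Col5a2 to 0.35 for Thy1, with a median of 0.040. Over all genes tested 1.79% were at least 2-fold higher in KO line 1 than in KO line 2 and 0.33% at least 2-fold lower. With quantile normalization the median of the 10 was -0.32 and with centring -0.27, so the sign between the KO lines depended on the scaling. Between the cKO lines these medians were 0.31 and 0.22. Which pair lay farther apart by its median therefore depended on the scaling too. Centring also took the median of all genes tested to -0.29 between the KO lines, -0.23 between the cKO lines, -0.31 for KO line 1 minus cKO line 2 and 0.22 for KO line 2 minus cKO line 1. Relative to the median of all genes, the medians of the 10 genes cannot change with centring, which shifts every gene of an array by the same amount.

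**Figure D2:**
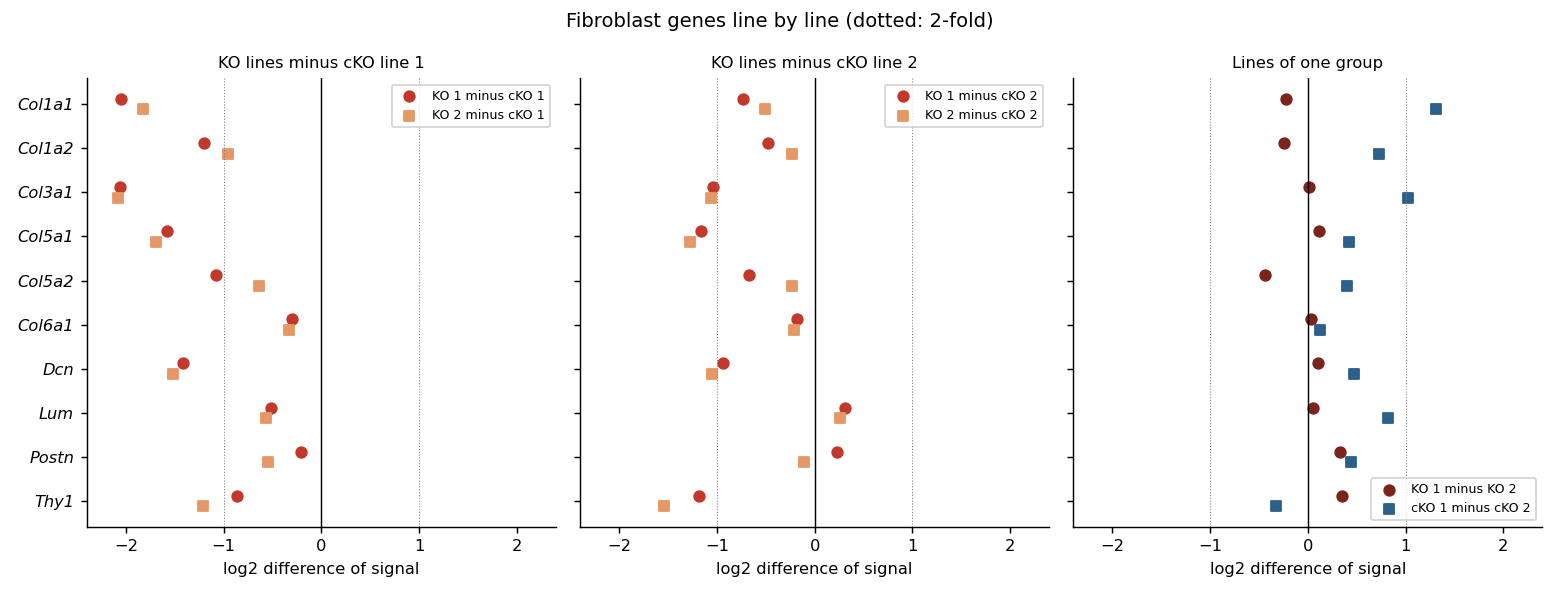
Log2 difference of signal (x axis) between single arrays for each of the 10 genes (rows), with KO lines against cKO line 1 on the left, against cKO line 2 in the middle, and lines of one group on the right. Dotted lines mark 2-fold. All points lie below 0 on the left, while in the middle Lum and, for KO line 1, Postn lie above 0 (for KO line 1 not with quantile normalization or centring), and on the right Col1a1 and Col3a1 are over 2-fold higher in cKO line 1.

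Enzymes that fold and cross-link collagen were set beside the chains. Serpinh1, the collagen chaperone HSP47 of the endoplasmic reticulum, fell in KO cells. It was the only called gene of 14 tested that modify or fold collagen chains, where 2.2% of all genes tested were called. It read 766 and 632 in KO lines 1 and 2, against 2697 and 1613 in cKO lines 1 and 2 (log2 fold change -1.58, SE 0.25, adjusted p = 0.0298 in limma). The order of its lines was that of Col3a1, with cKO line 1 the highest. The median of the 14 was -0.17, with the lysyl hydroxylase gene Plod1 at 0.021 (adjusted p = 0.979 in limma). In this list 7 of 14 had both KO values below both cKO values, against 21.2% of all genes tested.

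Of the 6 tested genes for procollagen cleavage and cross-linking none was called in limma, and 4 had an unadjusted p under 0.05, as had 13.8% of all genes tested. Bmp1, the protease that removes the C-terminal propeptide of fibrillar procollagens, read 183 and 207 in KO lines 1 and 2, against 797 and 408 in cKO lines 1 and 2 (-1.53, SE 0.31, adjusted p = 0.0618 in limma). Bmp1 passed with one KO line left out, whichever it was (adjusted p from 0.0114 to 0.0144) and without cKO line 2 (adjusted p = 0.0019). Lox, a lysyl oxidase that cross-links collagen, had -0.78 (adjusted p = 0.107 in limma). Pcolce, an enhancer of Bmp1 and an example chosen after its values were seen, went the other way, with 4247 and 5502 in KO lines 1 and 2, against 2951 and 3458 in cKO lines 1 and 2 (0.60, adjusted p = 0.143 in limma).

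Other collagens were mixed. None of 6 tested fibrillar, beaded and fibril-associated collagens was called in limma, 1 had an unadjusted p under 0.05 (13.8% of all genes tested had), and their median was -0.25. That gene was Col2a1, the cartilage collagen, at -1.25 (SE 0.35, adjusted p = 0.15), with 78.9 and 46.9 in KO lines 1 and 2 and 155 and 149 in cKO lines 1 and 2. Its KO mean of 62.9 is below the filter level, so it was tested through the cKO lines and its size is uncertain. Col6a2, a partner of Col6a1, had -0.34 (adjusted p = 0.796), and 0.23 without cKO line 1. Among 3 tested basement membrane collagens Col4a1 fell, with 848 and 892 in KO lines 1 and 2, against 2373 and 1568 in cKO lines 1 and 2 (-1.15, SE 0.21, adjusted p = 0.0483 in limma), a call that ended without cKO line 1 (-0.85, adjusted p = 0.0911) and under other settings, among them no filter. Col4a2, its partner, had -1.15 and did not pass (adjusted p = 0.11), while Col18a1 was bright and near equal in the groups (0.068, adjusted p = 0.857). Thus 1 of these 3 was called, where 2.2% of all genes tested were.

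Further matrix genes of fibroblasts leaned lower, with few calls. Of 14 tested, 1 was called, 13 had a negative log2 fold change, and the median was -0.71. Over all genes tested 2.2% were called and 48.6% were negative. Fbn2 and Tgfbi passed the filter only through the cKO lines, and over all 19 named genes of the list the median was -0.58. The called gene was Sparc, a collagen-binding matrix protein, with 2313 and 2478 in KO lines 1 and 2, against 7756 and 7523 in cKO lines 1 and 2 (-1.67, SE 0.12, adjusted p = 0.00441 in limma). The cKO lines were nearly equal for Sparc, unlike for Col1a1. Fn1, the fibronectin gene, differed little (0.055, adjusted p = 0.89). The proteoglycan Bgn, the tested relative of Dcn and Lum, had -0.44 (adjusted p = 0.538 in limma), and none of 6 tested matrix proteases and inhibitors was called in limma, with 3 at an unadjusted p under 0.05 (13.8% over all genes tested). The protease inhibitors Timp2 (-0.97, adjusted p = 0.0612) and Timp3 (-0.83, adjusted p = 0.2) did not pass. The collagen receptors Ddr1 (-0.94, adjusted p = 0.058) and Itgb1 (-0.60, adjusted p = 0.148) did not pass in limma either. Of 8 named receptors only these 2 had both KO values below both cKO values, against 21.2% of all genes tested. The median of the 8 was -0.17.

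**Figure D3:**
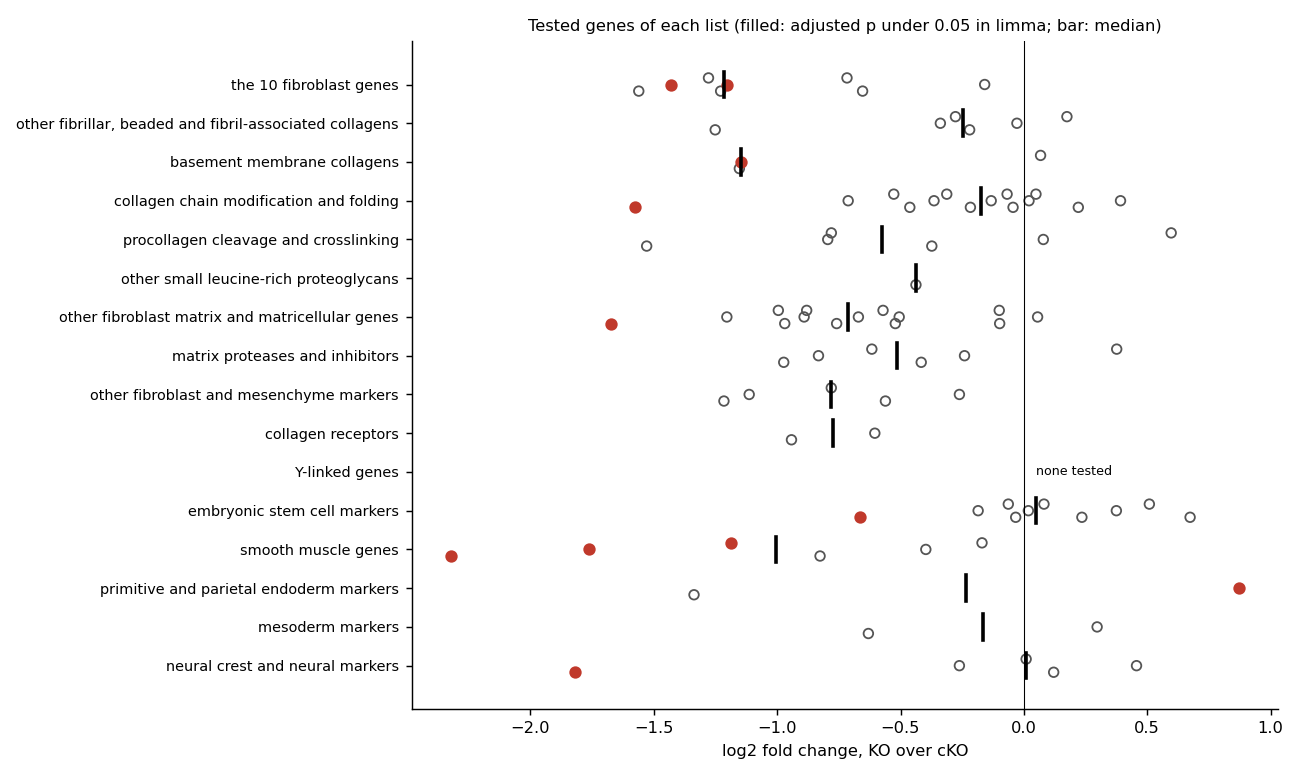
Log2 fold change of KO over cKO (x axis) for the tested genes of each list (rows), with 1 point a gene, filled where the adjusted p was under 0.05 in limma, and a bar at the median. The 8 tested fibroblast genes lie at or below -0.16, with Col5a1 and Thy1 filled, and no Y-linked gene was tested.

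Markers of other cells, and of fibroblasts beyond the 10 genes, were read on the same arrays. Of 19 further fibroblast and mesenchyme markers only 5 lay above the filter, so most were not above the level taken as near background. Pdgfra, Pdgfrb, Twist1, Twist2, Prrx1, Fap, Ddr2, Tcf21 and Dpt were among those below it. Of the 19, 8 had both KO values below both cKO values, against 21.2% of all genes tested. Prrx1 went the other way, with 60.1 and 53.8 in KO lines 1 and 2, against 30.7 and 31.0 in cKO lines 1 and 2, as did Meox1. None of the 5 was called in limma, and 3 had an unadjusted p under 0.05, against 13.8% of all genes tested. Of the 3, Prrx2 had a KO mean below the filter level. Vim, an intermediate filament gene that stem cells express as well, read 1929 and 1671 in KO lines 1 and 2, against 5632 and 3097 in cKO lines 1 and 2 (-1.22, SE 0.27, adjusted p = 0.0769), and Prrx2 had -1.11 (adjusted p = 0.284). The summed signal of these 19 genes was 3025 and 2704 in KO lines 1 and 2, against 7384 in cKO line 1 and 4319 in cKO line 2. Most of it was Vim. Leaving out Vim was a choice made after seeing the data. The other 18 include Meox1, which read 106 and 104 in KO lines 1 and 2, against 8.66 and 7.17 in cKO lines 1 and 2. The sum of the 18 was 1096 and 1033 in KO lines 1 and 2, against 1752 in cKO line 1 and 1222 in cKO line 2. With Meox1 counted, cKO line 2 thus lay near the KO lines. The sum over the 10 genes described here had the same order of groups, 1523 and 1643 in KO lines 1 and 2, against 3756 in cKO line 1 and 2544 in cKO line 2. In RNA from whole cultures, fewer cells of a type and less RNA per cell cannot be told apart.

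Y-linked genes stood out in cKO line 1, the line in which the collagens were highest. Eif2s3y, a translation factor gene, read 24.8 in each KO line, against 232 in cKO line 1 and 48.4 in cKO line 2. Uty, the Y-linked relative of Kdm6a, read 12.2 and 11.5 in KO lines 1 and 2, 57.6 in cKO line 1 and 10.6 in cKO line 2. Kdm5d stayed at or under 25.5 on every array. All 3 were under the filter, none was at 0, and their summed signal was 57.5 and 39.7 in KO lines 1 and 2, against 315 in cKO line 1 and 72.9 in cKO line 2. Their part in the result on collagens was not tested.

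Smooth muscle genes, which fibroblasts in culture also express, gave more calls than the other lists. Of 6 tested, 3 were called lower, namely Cnn1, Tagln and Myl9, where 1.57% of all genes tested were. The summed signal of all 8 was 7692 and 8774 in KO lines 1 and 2, against 22479 and 16503 in cKO lines 1 and 2. Cnn1, calponin, read 151 and 190 in KO lines 1 and 2, against 885 and 847 in cKO lines 1 and 2 (-2.32, SE 0.19, adjusted p = 0.00548 in limma). Tagln, transgelin, had -1.76 (adjusted p = 0.0056) and Myl9, a myosin light chain, -1.19 (adjusted p = 0.0256). Over the 8 smooth muscle genes the median log2 difference of cKO line 1 minus cKO line 2 was 0.41. It was 0.46 over the 10 fibroblast genes and 0.0042 over all genes tested. The called genes Cnn1 and Myl9 were near equal in the cKO lines (2128 and 2038 for Myl9), and Tagln read 8938 and 7092. The median counts Myh11 (17.5 and 3.81 in cKO lines 1 and 2) and Lmod1 (14.6 and 5.19), which were below the filter. Of the 8, 7 were higher in cKO line 1, a share that was not counted over all genes. The part of these genes in the result on collagens was not tested.

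Tested markers of other lineages did not share one direction. Over all named markers, most endoderm and mesoderm ones being below the filter, the medians were negative. They were -0.70 for endoderm, -0.25 for mesoderm and -0.26 for neural markers. Both KO values lay below both cKO values for 4 of 9, 1 of 7 and 3 of 7, against 21.2% of all genes tested. The 2 tested endoderm markers went opposite ways. Dab2, an endocytic adaptor gene, had a log2 fold change of -1.34 and did not pass (adjusted p = 0.0576 in limma). The laminin gene Lama1 rose, with 1063 and 1202 in KO lines 1 and 2, against 626 and 606 in cKO lines 1 and 2 (0.87, SE 0.16, adjusted p = 0.043 in limma), and Gata4, Gata6 and Sox17 were below the filter. Neither tested mesoderm marker passed in limma, Eomes at -0.63 (adjusted p = 0.606) and Hand1 at 0.30 (adjusted p = 0.708), and neither had an unadjusted p under 0.05. Of 5 tested neural genes, Nes fell, the gene of the intermediate filament nestin (-1.82, SE 0.30, adjusted p = 0.0325). Among the 10 stem cell markers Lin28a fell (-0.66, SE 0.11, adjusted p = 0.0346) and 9 did not pass. Sox2 (0.37, adjusted p = 0.0994 in limma) and Zfp42 (0.51, adjusted p = 0.102) were among the 9 and read higher in both KO lines. Of the 10, 4 had a negative log2 fold change, against 48.6% of all genes tested. Calls in these lists stand beside 2.2% called over all genes tested. Calls of Lama1, Lin28a and Nes each ended under some alternative settings, among them no filter.

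**Figure D4:**
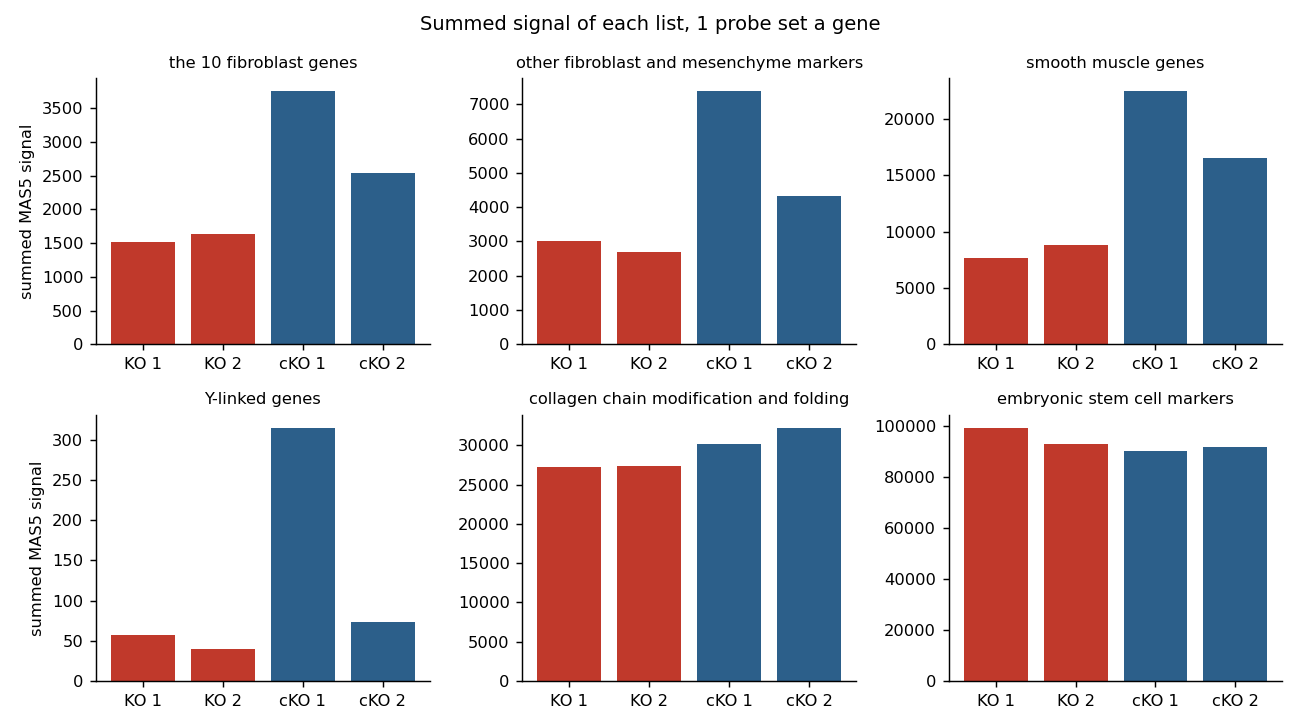
Summed linear MAS5 signal (y axis, from 0, own scale for each list) in KO lines 1 and 2 (red) and cKO lines 1 and 2 (blue) for 6 lists, with 1 probe set a gene and 1 array a line, so no error bars. The sums of both fibroblast lists, of the smooth muscle genes and of the Y-linked genes are highest in cKO line 1, at 3756 for the 10 genes and 315 for the Y-linked genes, while the stem cell markers lie between 90078 and 99190.

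The shared profile of the 10 genes was then used to look for others like it. Log2 signals of each gene were centred on their mean over the 4 arrays and averaged over the 10, which gave -0.43 and -0.44 in KO lines 1 and 2, 0.70 in cKO line 1 and 0.16 in cKO line 2. Col1a2 lay nearest to this mean profile, at a Euclidean distance of 0.265, and Col3a1 farthest, at 0.778. Among 10908 other tested genes the 10 nearest were Lpar4, Amot, Cavin3, Smim3, Fyn, Rbms1, Sowahb, Timp3, Nfatc2 and Chst11, at distances from 0.0725 to 0.168, where the median gene was at 1.01. The nearest, Lpar4, a receptor for lysophosphatidic acid, read 372 and 390 in KO lines 1 and 2, against 815 in cKO line 1 and 556 in cKO line 2. Chst11, a chondroitin sulfotransferase, read 144 and 125 in KO lines 1 and 2, against 295 and 222 in cKO lines 1 and 2. These 10 were picked for a profile that is lower in KO. Only Rbms1 of them, an RNA-binding protein gene, was called (-0.88, adjusted p = 0.0487 in limma), and only Timp3 was on a list used here. The likeness rests on 4 arrays and is a description.

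**Figure D5:**
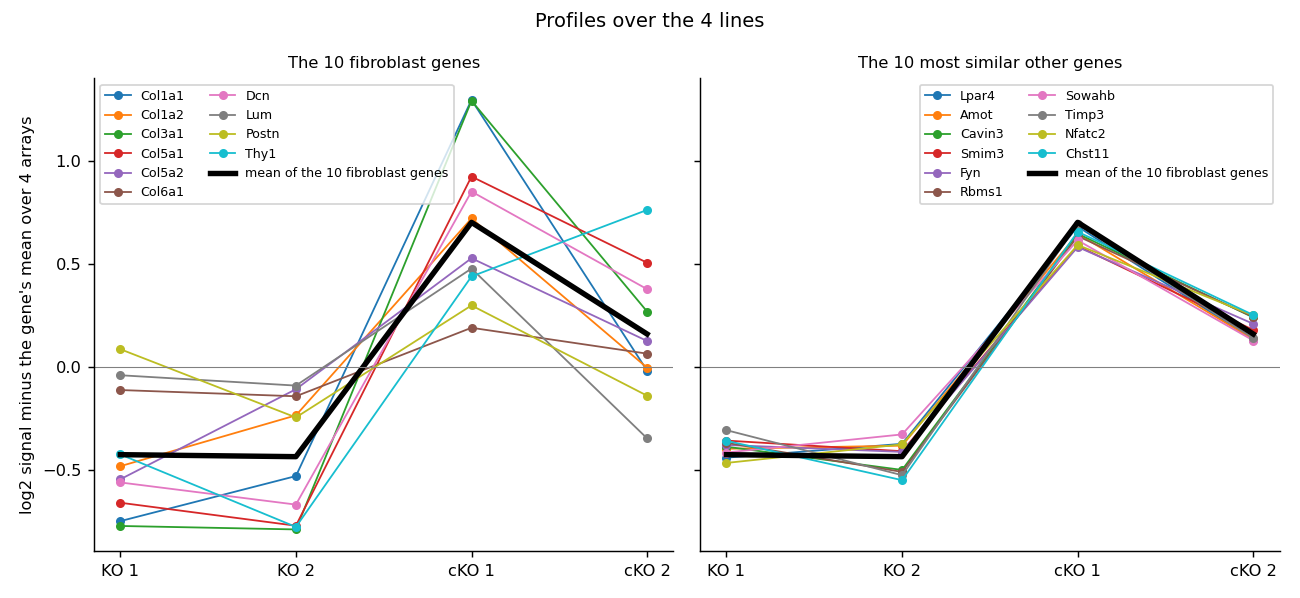
Log2 signal minus the gene's own mean over the 4 arrays (y axis) in KO lines 1 and 2 and cKO lines 1 and 2 (x axis), for the 10 fibroblast genes (left) and the 10 other genes nearest to their mean profile (right), with that mean as a thick black line at -0.43, -0.44, 0.70 and 0.16. The fibroblast genes spread around the mean, from Col1a2 at a distance of 0.265 to Col3a1 at 0.778. The 10 nearest genes lie close to it because they were chosen by that distance.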

How the data were processed

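RNA of each of the 4 lines was hybridised to 1 array. The deposited values are linear intensity signals of probe sets from MAS5, the tool that the submitters' processing notes name. Its version and settings are not given in the sources used here, and no detection calls were used. With 2% trimmed at both ends, the arrays' mean signals were all 500.0, so no further scaling was applied. The scale used is log2(signal + 4.79), the 10th percentile being the pseudocount, so fold changes of dim genes are understated.

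Of 45101 probe sets, 34945 named one gene, 932 several and 9160 none, and 64 were controls. Of those naming one gene, 34741 took a current symbol through RefSeq (GRCm38.p6), giving 18193 genes, of which 7277 fell below the filter. The comparison of KO with cKO used limma 3.58.1 under R 4.3.3 (eBayes with a trend, 2 residual and 5.13 prior degrees of freedom) and Benjamini-Hochberg adjustment over 10916 genes, or 20967 probe sets above a signal of 53.8. The procedure was tested on simulated data, where it recovered 41.5% of 2-fold and 86.6% of 4-fold changes. A gene that did not pass may therefore still differ. The simulated errors were independent between arrays, unlike the deviations of the measured arrays, which went with the line number (r = 0.52).

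The 10 genes and the lists were chosen with earlier results of these data known. Genes named by rule are Kdm6a, the 10 genes, per list up to 4 called genes of largest change or else up to 2 of smallest p, the Y-linked genes and the 10 genes of nearest profile. Other genes are examples chosen after their values were seen. Of the lists, Col6a6, Fkbp10, Adamts2, Adamts14, Loxl2, Fbn1, Itga11, Ddx3y and T were not analysed here. Alternatives were other pseudocounts, filters and scalings, averaging of probe sets per gene, a fit with no variance trend, a block for the line number, each array left out and, added after seeing the data, choosing probe sets by mean linear signal. Where an array was left out, its group's lone line was assumed to vary like the other lines. Summaries and plots used Python 3.11.15, numpy 2.4.6, pandas 2.3.3 and matplotlib 3.10.9.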

Additional observations from a re-analysis of the deposited data

How the results depend on the processing

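The median of the 10 genes was negative under all 14 alternatives, from -1.06 without cKO line 2 to -0.54 without cKO line 1. Calls were less steady. The 2 genes called in limma became 5 with centring, 4 with the line number as a block, and 0 with no filter, with the lower 60% left out (2 of the 10 tested), with probe sets averaged per gene and with eBayes without the trend, where 7, 2, 4 and 7 genes had an unadjusted p under 0.05. Leaving out arrays gave 1 to 4. Their probe sets, 1 called, gave 4 with centring, 7 with the block, 0 with no filter and 0 without the trend (11 and 9 at an unadjusted p under 0.05), and 0 to 5 with an array left out. Over all genes the 240 calls became 147 with no filter, 154 with the lower 60% left out, 129 with the mean of probe sets, 328 with centring, 28 without the trend, 1048 with the block and 228 to 432 with an array left out (432 without KO line 1). The median of KO line 1 minus KO line 2 was -0.32 with quantile normalization and -0.27 with centring, and that of KO line 1 minus cKO line 2 was -1.02 with centring. With an array left out Postn ran from -0.38 to 0.060, including 0.0067 without KO line 2, and Col6a2 from -0.90 to 0.23. The labels do not pair lines of one number. Deviations of KO line 1 and cKO line 1 from their group means correlated at r = 0.52 across genes, and the block called Col3a1, Col5a1, Dcn and Thy1. For Col1a1, choosing the probe set by linear signal gave -1.93 (adjusted p = 0.0582). The cause of these shifts was not tested. Signals below or close to the filter level limit Lum, Col6a1, Postn and the KO values of Col3a1 and Dcn.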

Other observations

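Among the further mesenchyme markers, Meox1, a homeobox gene of somitic mesoderm, was higher in both KO lines. It read 106 and 104 in KO lines 1 and 2, against 8.66 and 7.17 in cKO lines 1 and 2, a log2 difference of 3.11. Its mean is under the filter, and with no filter its adjusted p was 0.0368 in limma (SE 0.44). Twist2, a transcription factor gene of fibroblasts, had the opposite order, with 12.3 and 11.6 in KO lines 1 and 2 and 50.4 and 46.4 in cKO lines 1 and 2 (-1.67, adjusted p = 0.222 with no filter in limma). Both genes were chosen after their values were seen, and the dimmer group of each lies near background, so the sizes are uncertain.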
